A study of Homo sapiens with 4 samples.

Results

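The genes described here are the nuclear genes of oxidative phosphorylation, chosen by symbol: the NDUF, UQCR, ATP5F1, ATP5M and ATP5P genes, the COX4I, COX5, COX6, COX7 and COX8 subunits, SDHA, SDHB, SDHC, SDHD, CYC1 and CYCS. The rule took 97 protein-coding genes, of which 94 were among the 19390 genes listed in any library and 90 reached 1 CPM (1 count in a library scaled to 1000000 counts) in at least 1 library. The libraries came from H1 cells, an established wild-type human embryonic stem cell line, taken undifferentiated (day 0) and at days 2, 3 and 4 of stepwise haematopoietic differentiation, with 1 RNA library per day. The medium held 40 ng/ml activin A and 50 ng/ml BMP4 for the first 2 days, and 40 ng/ml VEGF and 50 ng/ml bFGF for the next 2. All libraries came from the same line, and with 1 library per day no difference below has a replicate check. Intervals are exact 95% intervals and cover counting error only.

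Oxidative phosphorylation makes ATP in the inner mitochondrial membrane. Complexes I, III and IV pump protons while electrons pass from NADH to oxygen, complex II feeds in electrons from succinate, cytochrome c carries them from complex III to complex IV, and ATP synthase uses the proton gradient. The mitochondrial genome encodes a few core subunits of each complex except complex II, and their transcripts were not analysed here. All other subunits are imported proteins of nuclear genes, and pluripotent stem cells are known for a strong reliance on glycolysis.

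The promoters of these genes are known for sites of NRF1, of ETS factors such as GABP, and of YY1 and the oestrogen-related receptors (ERR). Promoter sequence from RefSeq (GRCh38.p14), from 250 bases before to 50 bases after each start, was matched for 75 of the 90 genes, which had 93 windows. On either strand, CGCNTGCG (NRF1) stood in 30.1% of these windows, in 10% of all 35116 promoter windows and in 12.8% of those of protein-coding genes. CCGGAAG (ETS factors) stood in 26.9%, 10.3% and 12.8%, and AAGATGGC (YY1) in 16.1%, 2.89% and 3.53%. TCAAGGTCA (ERR) stood in 1.08%, which is 1 window, against 0.353% and 0.243%. These are matches of letters, not sites of binding. The 200 bases before the start are printed 5′ to 3′ in the direction of the gene for 5 genes that recur below, chosen after their matches and values were seen. They are SDHD (chr11:112086673-112086872, plus strand), ATP5MK (chr10:103396476-103396675, minus strand), NDUFAB1 (chr16:23596317-23596516, minus strand), NDUFA12 (chr12:95003698-95003897, minus strand) and COX7C (chr5:86617741-86617940, plus strand). Capitals mark matches within the printed stretch to NRF1 and ETS letters on either strand, and in ATP5MK the ETS letters of both strands overlap.
SDHD: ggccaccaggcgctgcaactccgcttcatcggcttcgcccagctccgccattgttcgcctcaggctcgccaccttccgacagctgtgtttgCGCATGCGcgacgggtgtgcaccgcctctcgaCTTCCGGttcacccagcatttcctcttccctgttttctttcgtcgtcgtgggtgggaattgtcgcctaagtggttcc
ATP5MK: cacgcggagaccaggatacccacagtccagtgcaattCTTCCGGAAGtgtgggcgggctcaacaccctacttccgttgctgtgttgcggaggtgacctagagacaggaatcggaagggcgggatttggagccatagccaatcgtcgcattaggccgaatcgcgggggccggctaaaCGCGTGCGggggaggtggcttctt
NDUFAB1: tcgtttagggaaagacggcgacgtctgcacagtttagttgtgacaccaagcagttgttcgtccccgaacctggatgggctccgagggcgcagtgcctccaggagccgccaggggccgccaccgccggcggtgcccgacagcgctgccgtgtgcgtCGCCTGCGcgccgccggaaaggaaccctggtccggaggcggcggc
NDUFA12: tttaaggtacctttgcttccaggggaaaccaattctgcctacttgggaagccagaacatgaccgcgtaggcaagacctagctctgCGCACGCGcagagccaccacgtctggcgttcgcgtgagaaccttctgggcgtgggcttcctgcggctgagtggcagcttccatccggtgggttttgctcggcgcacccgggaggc
COX7C: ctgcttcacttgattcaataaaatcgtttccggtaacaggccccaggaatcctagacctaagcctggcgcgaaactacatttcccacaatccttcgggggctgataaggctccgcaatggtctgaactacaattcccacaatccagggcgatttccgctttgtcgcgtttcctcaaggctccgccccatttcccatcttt
SDHD and ATP5MK held matches to both motifs, SDHD also to ERR letters past the printed stretch, NDUFAB1 and NDUFA12 to NRF1 letters, and COX7C to none of the 4 in this window. SDHD and COX7C were among the genes lower at day 2 than at day 0, whereas ATP5MK and NDUFAB1 were among those higher at day 4 than at day 0. Across the 75 genes, the median log2 ratio of day 2 to day 0 was -0.19 for the 27 with NRF1 letters and -0.30 for the 48 without. For day 4 against day 2 the same medians were 0.32 and 0.45, so genes with and without the letters had medians of the same sign. With ETS letters the medians were -0.30 (23 genes) against -0.24 (52 genes) at day 2 over day 0, and with YY1 letters -0.31 (13 genes) against -0.27 (62 genes).

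The libraries held 5038060 to 5493266 counts. CPM were computed on totals scaled by TMM (factors 0.981 to 1.02), so 1 count was worth 0.182 to 0.196 CPM. Marker genes differed widely between days: the 6 pluripotency markers summed to 6862 CPM at day 0 and to 2191, 2078 and 1684 CPM at days 2, 3 and 4, and all 6 were lower at day 2. Primitive streak markers summed to 1.55, 658, 356 and 77.2 CPM, and 6 endothelial and early blood markers to 213, 410, 1011 and 1343 CPM. Of 9 erythroid markers 6 were listed, with sums of 2.52, 7.45, 1.16 and 13.8 CPM. The 10 markers of striated muscle, a tissue rich in mitochondria, summed to 75.6, 736, 1573 and 2847 CPM, of which ACTC1 made 28.7, 607, 1531 and 2808 CPM. MYL7 had 0.388, 51.0, 23.2 and 20.9 CPM and ACTA1 27.2, 65.1, 8.50 and 3.27 CPM, while MYH7, MB and CKM were at or near 0. Of the muscle markers measured, 4 of 7 were higher and 2 lower at day 2 than at day 0, and 3 of 7 higher and 2 lower at day 4 than at day 0. In bulk RNA, fewer cells of a type and less RNA per cell cannot be told apart, and the part of this changing cell makeup in the results below was not tested.

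Expression of oxidative phosphorylation genes was lower at days 2 and 3 than at days 0 and 4. Their summed level was 6258 CPM (6190 to 6327) at day 0, 4924 CPM (4864 to 4986) at day 2, 4755 CPM (4696 to 4815) at day 3 and 6272 CPM (6206 to 6339) at day 4. Day 2 stood at 0.787 times day 0 (0.774 to 0.800), day 4 at 1.27 times day 2 (1.25 to 1.30), and day 4 at 1.0 times day 0 (0.987 to 1.02). The middle days lay below both outer days. Whether day 4 lay within counting error of day 0 rests on the scaling. The ratio of day 4 to day 0 was 0.981 (0.966 to 0.996) with unscaled totals. With size factors by the median of ratios it was 0.984 (0.969 to 0.999). Of the 90 genes, 63 (70%) had both middle days below both outer days, a pattern shown by 16.7% of the 16085 genes of at least 1 CPM. With a margin of 1.25-fold on each side, 17 genes (18.9%) showed it, against 4.79% of all genes. None showed the opposite order, with or without the margin, but the share of all genes with the opposite order was not computed. The order with low middle days was looked for after the values had been seen. With 1 library per day, a difference between days and a difference between libraries cannot be told apart. The same order was shown by 92.8% of cytosolic ribosomal protein genes and 33.2% of other genes under 1000 bases, as given below. The lowest level fell at day 2 in 32 genes and at day 3 in 45, and the highest at day 0 in 38 and at day 4 in 49.

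**Figure D1:**
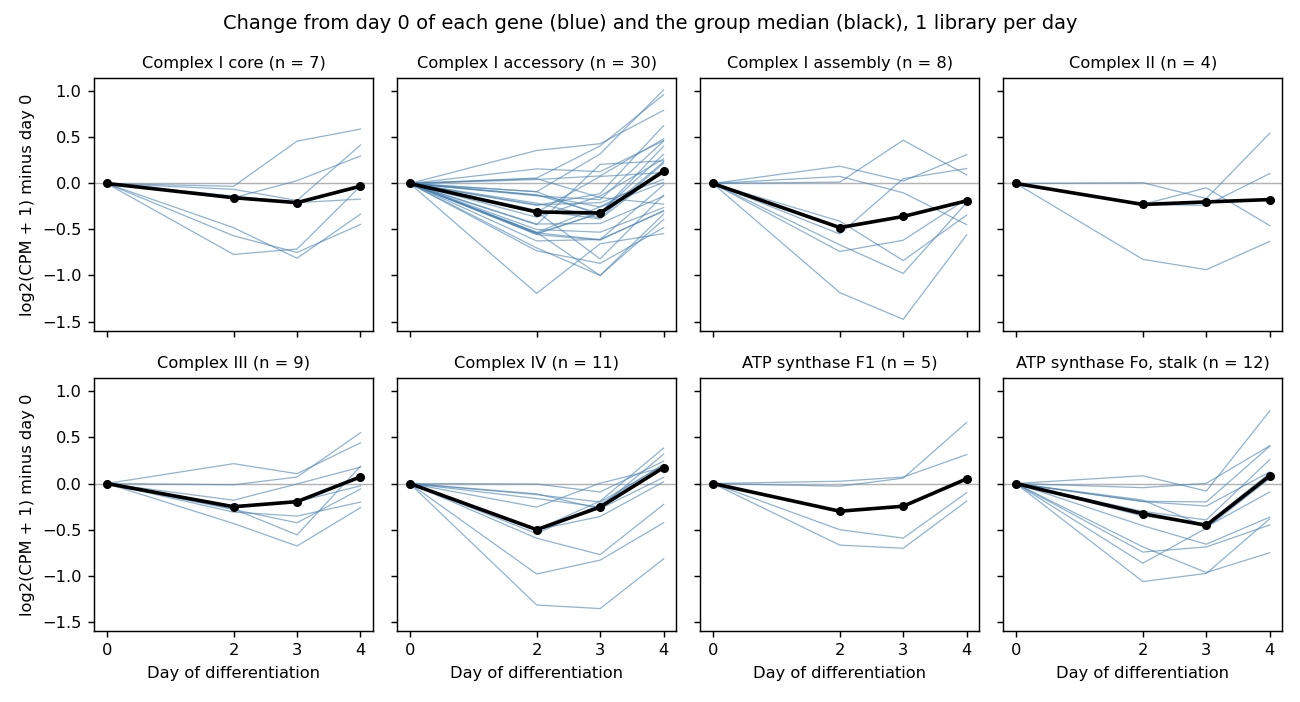
Change from day 0 on the log2(CPM + 1) scale (y axis) against day of differentiation (x axis) for each gene of at least 1 CPM (blue) and the median of its group (black), 1 library per day. The medians of the 8 plotted groups lie below 0 at days 2 and 3 and nearer to or above 0 at day 4.

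Each complex held genes with this order. Complex I accessory subunits showed this order in 22 of 30 genes, complex I core subunits in 4 of 7, complex I assembly factors in 4 of 8 and complex II in 2 of 4. In complex III it was 7 of 9, in complex IV 10 of 11, in the F1 part of ATP synthase 3 of 5, and in its Fo part and stalk 9 of 12. CYCS, the gene of cytochrome c, also showed it. The summed level of complex IV, the cytochrome c oxidase, was 784, 566, 573 and 780 CPM at days 0, 2, 3 and 4. Day 2 was 0.721 times day 0 in complex IV (0.687 to 0.757), compared with 0.866 times (0.827 to 0.908) in complex III. These are the lowest and highest ratios of the complexes. Their intervals do not overlap but cover counting error only. Complex I accessory subunits summed to 1255, 991, 972 and 1309 CPM, F1 subunits to 1298, 1025, 1020 and 1336 CPM, and Fo and stalk subunits to 1000, 771, 743 and 1059 CPM. Complex II summed to 239, 193, 196 and 215 CPM, and its sum at day 4 was below that at day 0 beyond counting error, at a ratio of 0.902 (0.832 to 0.978). The core subunits of complex I, at 0.937 (0.879 to 0.998), its assembly factors, at 0.851 (0.768 to 0.943), and CYCS, at 0.827 (0.771 to 0.887), were likewise below day 0. Complex I accessory subunits, at 1.04 (1.01 to 1.08), and Fo and stalk subunits, at 1.06 (1.02 to 1.10), were above it. Complex III, complex IV and F1 were within counting error of day 0. These ratios are for TMM-scaled totals.

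Day 2, after the activin A and BMP4 step, was compared with day 0. The libraries include no untreated culture of a later day, so time and medium cannot be told apart. A gene with 1 CPM or more in either library was counted where its log2(CPM + 1) differed by the log2 of 1.5 or more. No oxidative phosphorylation gene was higher and 17 of 90 were lower, while 22.0% of the 15379 genes compared were higher and 19.1% lower. The share counted as lower, 18.9%, was thus close to that of all genes, while the ratios of the group spread narrowly below 0. With totals not scaled by TMM 26 genes were lower (28.9%, against 21.2% of all genes), and with deposited FPKM 24 (26.7% against 19.0%). The log2 ratio was below 0 in 78 of the 90 genes, with a median of -0.29 and a middle range of -0.54 to -0.12. Over all genes the median was -0.00 and the middle range -0.44 to 0.49. At a 2-fold threshold 0 were higher and 4 lower, against 12.9% and 8.81% of all genes. Among 86 genes with 10 CPM or more, 0 were higher and 16 lower, against 21.1% and 16.3%.

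Small subunits of complex IV were among the genes with the largest differences at day 2. COX7C (Entrez gene 1350), one of the smallest subunits of complex IV, had 118 CPM at day 0, 46.7 at day 2, 45.4 at day 3 and 66.5 at day 4. It was 2.53-fold lower at day 2 than at day 0 (2.17 to 2.95), and all later days stayed below day 0. COX5A, a matrix-side subunit of the same complex, had 75.8, 37.9, 42.1 and 56.2 CPM and was 2.00-fold lower at day 2 (1.68 to 2.39). COX7B, at 68.1, 44.7, 39.4 and 58.0 CPM, was the other complex IV gene counted as lower. In contrast, COX4I1, the regulatory subunit of most tissues, had 108, 96.3, 90.3 and 135 CPM, and its ratio of 1.12 (0.992 to 1.27) between days 0 and 2 lay within counting error. COX6A1 at 90.2, 83.4, 74.4 and 94.5 CPM and COX6C at 52.4, 48.1, 45.4 and 60.3 CPM followed the same shallow course. All 11 complex IV genes had a log2 ratio below 0 at day 2, with a median of -0.50.

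In complex I the accessory subunits NDUFB1, NDUFB9, NDUFB10 and NDUFS6 and the core subunit NDUFS3 were lower at day 2. NDUFB1, a small subunit of the membrane arm, had 16.1, 6.47, 9.86 and 10.7 CPM and was 2.49-fold lower at day 2 (1.64 to 3.84). NDUFS3, a core subunit of the peripheral arm, had 34.5, 19.8, 20.7 and 33.8 CPM, with days 0 and 4 alike and the middle days at a lower level. Other core subunits differed less: NDUFS1, the largest iron-sulphur subunit, had 99.3, 90.2, 85.8 and 88.2 CPM. Of the 8 assembly factors, 3 (NDUFAF2, NDUFAF6 and NDUFAF8) were also lower. NDUFAF6 had only 9.31, 3.53, 2.71 and 6.0 CPM, so its 2.64-fold difference carries a wide interval (1.51 to 4.82). The group medians were -0.15 for core subunits, -0.31 for accessory subunits and -0.48 for assembly factors.

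Other core subunits of complex I followed different courses. NDUFV2, in the NADH-oxidising module, had 83.6, 59.6, 47.2 and 66.2 CPM, and at day 4 it was below day 0 beyond counting error, at 0.792 times (0.687 to 0.912). NDUFV1, which binds the flavin that takes electrons from NADH, had 38.8, 37.1, 34.0 and 52.2 CPM, and was 1.35-fold higher at day 4 than at day 0 (1.12 to 1.62). NDUFS7 and NDUFS8, iron-sulphur subunits near the membrane arm, had 11.3, 11.0, 15.9 and 17.5 CPM and 30.3, 27.1, 30.9 and 37.4 CPM. The core of complex I thus held NDUFV2, which ended below day 0, and NDUFV1 and NDUFS7, which ended above it. Among accessory subunits NDUFS5, the most abundant per length, had 147, 100, 95.9 and 120 CPM, and NDUFA5 had 76.4, 52.6, 37.7 and 58.0 CPM, lowest at day 3. NDUFB4 departed from the group with 76.6, 79.5, 68.8 and 65.4 CPM, lowest at day 4.

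ATP synthase showed the same order, and 2 of its 3 c subunit genes had its largest differences at day 2. Subunit c forms the rotating ring in the membrane and is encoded by ATP5MC1, ATP5MC2 and ATP5MC3, whose mature proteins are the same. Together they summed to 258, 157, 168 and 232 CPM, and day 2 stood at 0.608 times day 0 (0.556 to 0.664). ATP5MC1 (Entrez gene 516) had 30.6, 14.1, 15.1 and 23.3 CPM and was 2.17-fold lower at day 2 (1.63 to 2.91). ATP5MC2 (Entrez gene 517) had 122, 66.7, 87.2 and 127 CPM and was 1.84-fold lower (1.61 to 2.10). ATP5MC3 (Entrez gene 518) had 105, 75.9, 65.9 and 81.1 CPM and did not reach the 1.5-fold threshold in any comparison. The 3 genes thus diverged at day 4, where ATP5MC2 was back at its day 0 level and ATP5MC1 and ATP5MC3 were at 0.759 (0.597 to 0.965) and 0.774 times it (0.681 to 0.879). Per length, in deposited FPKM, ATP5MC2 was the most abundant of the 3 at every day (142, 74.1, 99.1 and 145), above ATP5MC1 (55.1, 24.4, 26.4 and 40.9) and ATP5MC3 (39.8, 27.6, 24.4 and 30.1). ATP5ME, ATP5PD and ATP5F1D were also lower at day 2, whereas the catalytic ATP5F1B, at 603, 426, 400 and 563 CPM, was 1.42-fold lower (1.34 to 1.5) and did not reach the threshold. ATP5F1A, the alpha subunit that alternates with the catalytic beta subunit in the F1 head, had 452, 367, 381 and 468 CPM, a dip of the same kind, while ATP5F1C, the gamma subunit of the rotating shaft, had 167, 170, 175 and 208 CPM and no dip. In the peripheral stalk ATP5PB had 130, 113, 110 and 142 CPM, ATP5PO 104, 81.4, 76.7 and 113 CPM, and ATP5PF 65.0, 56.7, 56.4 and 86.3 CPM. These 3 stalk genes were back at or above day 0 at day 4, unlike ATP5PD of the same stalk, described below.

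Complex II, which also belongs to the citrate cycle, was split. SDHD (Entrez gene 6392), one of its membrane anchors, had 55.7, 31.0, 28.6 and 35.6 CPM and was 1.80-fold lower at day 2 (1.47 to 2.20). SDHC, the other anchor, had 92.5, 78.9, 89.5 and 67.1 CPM. SDHB, the iron-sulphur subunit, had 38.0, 38.3, 33.8 and 56.0 CPM. SDHA, the flavin-bearing catalytic subunit, had 52.4, 44.5, 44.3 and 56.5 CPM. Both catalytic subunits were thus at or above their day 0 level at day 4, and both anchors were below theirs, at 0.640 times for SDHD (0.531 to 0.770) and 0.725 times for SDHC (0.631 to 0.832). Per length, SDHB had the highest mean level of the 4 (36.4 FPKM) and SDHA the lowest (20.6 FPKM).

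Complex III and cytochrome c had no gene counted as lower at day 2. CYCS had 327, 243, 183 and 270 CPM, 1.35-fold lower at day 2 than at day 0 (1.25 to 1.45). UQCRC2, a structural core protein of complex III, was above its day 0 level at each later day, with 93.5, 109, 101 and 127 CPM. CYC1, the haem-bearing cytochrome c1, had 46.2, 45.7, 48.5 and 68.2 CPM, level until day 3 and higher at day 4. UQCRH, the hinge protein, had 125, 92.0, 77.5 and 104 CPM and was the complex III gene with the highest level per length, a mean of 193 FPKM. UQCRFS1, the Rieske iron-sulphur protein, had 92.3, 75.7, 68.4 and 88.5 CPM, and UQCRC1, the second core protein, 97.4, 78.3, 76.0 and 84.5 CPM, with both middle days below days 0 and 4 in each. UQCRB, a small subunit near the ubiquinone site, had 176, 148, 153 and 173 CPM, with days 0 and 4 within counting error at a ratio of 0.983 (0.896 to 1.08). UQCRHL, a near copy of UQCRH, had 1 count at day 4 alone.

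Of the 12 genes above 0 at day 2, none passed 1.5-fold. The largest ratio was that of NDUFAB1 (Entrez gene 4706), the mitochondrial acyl carrier protein, which had 17.1, 22.2, 23.4 and 30.4 CPM and so a higher level at each later day. NDUFA6 followed a like course with 57.0, 63.8, 62.4 and 79.1 CPM. ATP5MK, a small accessory subunit of ATP synthase, had 43.4, 46.1, 41.0 and 75.8 CPM, level through day 3 and higher at day 4. NDUFAF7, a methyltransferase that acts on complex I, differed from both with 44.2, 46.7, 41.2 and 32.2 CPM.

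Day 3, sampled 1 day into the VEGF and bFGF step, lay close to day 2. The median log2 ratio of day 3 to day 2 was -0.04 over the 90 genes, with 38 above 0 and 52 below. From day 3 to day 4 the median was 0.40, with 84 above 0 and 6 below, so most of the difference between the middle days and day 4 lay in the last day. Over all genes of at least 1 CPM these medians were 0.00 and -0.01.

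**Figure D2:**
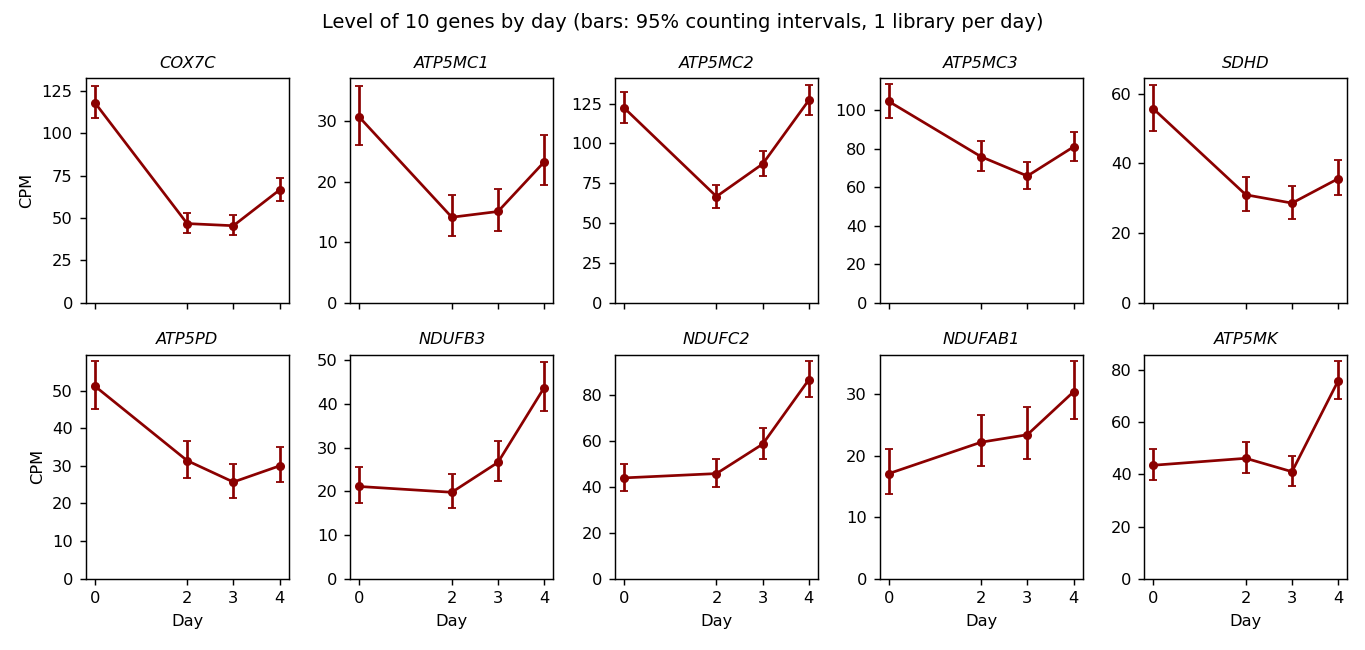
Level in CPM (y axis, from 0) against day of differentiation (x axis) for 10 genes, with exact 95% counting intervals and 1 library per day. COX7C, SDHD, ATP5PD, ATP5MC1 and ATP5MC3 stay below day 0 at every later day, while ATP5MC2 dips and is back at its day 0 level at day 4. NDUFB3, NDUFC2, NDUFAB1 and ATP5MK are highest at day 4.

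Day 4, after the VEGF and bFGF step, was compared with day 2, and here too time and medium cannot be told apart. This comparison shares the day 2 library with the comparison of day 2 and day 0, so a low value at day 2 enters both. Of the 90 genes 21 were higher and 2 lower, whereas 16.4% of the 15406 genes compared were higher and 16.7% lower. The share of higher genes, 23.3%, exceeded that of all genes by a modest margin, and the 2 lower genes lay far below the share of all genes. The log2 ratio was above 0 in 83 of the 90, with a median of 0.37 against 0.02 over all genes. At 2-fold 1 gene was higher and 1 lower, against 8.18% and 7.60% of all genes. With a minimum of 10 CPM 20 of 86 were higher and 1 was lower, against 13.5% and 14.7%. At this minimum 17 of the 50 genes with transcripts under 1000 bases were higher, against 23.8% of other genes that short. Of the 36 genes of 1000 bases and over 3 were higher, against 12.9% of other genes. The excess was thus confined to the short genes, and other short genes were also often higher.

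Complex I accessory subunits, 30 of the 90 genes, made up 10 of the 21 higher genes. These 10 are 33.3% of the accessory subunits, against 16.4% of all genes. NDUFB3 (Entrez gene 4709), a subunit of the membrane arm, had 21.1, 19.8, 26.7 and 43.8 CPM and was the 1 gene past 2-fold, at 2.21-fold higher than at day 2 (1.75 to 2.82). NDUFA12 (Entrez gene 55967), in the peripheral arm, had 34.3, 23.2, 27.3 and 45.8 CPM and was 1.98-fold higher (1.58 to 2.48). NDUFS4, an accessory subunit near the NADH-oxidising module, had 18.2, 15.3, 16.8 and 28.7 CPM and was 1.88-fold higher (1.42 to 2.49). For these 3 genes day 4 was the highest of the 4 days. The core subunits NDUFS3 and NDUFS7 and the assembly factors NDUFAF1 and NDUFAF6 were the other complex I genes counted as higher. The ratio of NDUFAF6, 1.70 (0.929 to 3.20), lay within counting error. In ATP synthase the higher genes were ATP5F1E, ATP5MC1, ATP5MC2, ATP5MK and ATP5PF, with ATP5MC2 at 1.91-fold (1.67 to 2.18). In complex IV they were COX6B1, with 74.3, 50.6, 63.4 and 86.0 CPM, and COX7A2, with 35.7, 24.9, 31.1 and 46.9 CPM. Complexes II and III had none, but only 4 and 9 of their genes were measured.

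NDUFC2 was counted as higher and its read-through model as lower, and they share exons. NDUFC2 had 44.0, 45.9, 58.8 and 86.9 CPM, whereas NDUFC2-KCTD14, a model joining NDUFC2 to the next gene, had 37.4, 32.0, 15.7 and 12.4 CPM. The model was 2.59-fold lower at day 4 than at day 2 (1.94 to 3.49). Since the counts assigned to the pair are estimates that divide shared reads, each one alone is uncertain. Summed over both, the level was 81.5, 77.9, 74.4 and 99.2 CPM, which is 1.27-fold higher at day 4 than at day 2 (1.12 to 1.45) and below the threshold. The second such pair, ATP5MF and ATP5MF-PTCD1, summed to 227, 186, 172 and 258 CPM. The other gene counted as lower, COX6B2, is the testis form of COX6B and had 7.56, 6.47, 5.99 and 3.82 CPM. Its ratio of day 4 to day 2, 0.590 (0.324 to 1.05), lay within counting error. Below the threshold, NDUFAF7 was 1.45-fold lower at day 4 (1.19 to 1.77) and SDHC 1.18-fold lower (1.02 to 1.36).

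Day 4 with day 0, the whole interval, left few genes apart. Of 90 genes 7 were higher and 5 lower, whereas 25.6% of the 15652 genes compared were higher and 22.1% lower. The median log2 ratio was 0.06 against 0.03 over all genes, and 50 genes stood above 0 and 40 below. At 2-fold 1 gene was higher and 1 lower, against 16.1% and 11.9%. With a minimum of 10 CPM 7 of 87 were higher and 4 lower, against 24.4% and 19.9%. The higher genes were NDUFB3 at 2.07-fold (1.65 to 2.62), NDUFC2, NDUFAB1 at 1.78-fold (1.37 to 2.33), ATP5MK at 1.75-fold (1.48 to 2.06), ATP5F1E, NDUFS4 and NDUFS7. ATP5F1E, the epsilon subunit of the central stalk, had 42.7, 41.8, 44.5 and 68.2 CPM. The lower genes were NDUFC2-KCTD14 at 3.03-fold (2.29 to 4.05), COX7C at 1.78-fold (1.56 to 2.03), ATP5PD, SDHD at 1.56-fold (1.30 to 1.88) and COX6B2. NDUFC2 and NDUFC2-KCTD14 divide shared reads, so the estimate of each alone is uncertain. Summed over both, day 4 was 1.22 times day 0 (1.07 to 1.39), below the threshold. ATP5PD, subunit d of the peripheral stalk, had 51.2, 31.4, 25.7 and 30.0 CPM and was 1.71-fold lower at day 4 (1.40 to 2.09). Genes of 1 complex therefore ended on both sides of their day 0 level: within ATP synthase ATP5MK and ATP5F1E were above it and ATP5PD was below.

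Isoforms of other tissues, apart from COX6B2, were at or near 0. The heart and skeletal muscle form COX6A2, the lung form COX4I2 and the testis form COX8C were listed in no library. COX7A1, the muscle form of COX7A, had 2 counts at day 2 and was not listed at the other days, and COX7B2 had 1 count at day 3. The tables list only genes with a count above 0. The general forms COX4I1, COX6A1, COX6B1 and COX7A2 had 132, 152, 122 and 50.9 FPKM on average, against 3.59 FPKM for COX6B2. The muscle forms COX6A2 and COX7A1 were thus at or near 0 in the same libraries in which ACTC1 was high. NDUFA4 and NDUFA4L2 are named COXFA4 and COXFA4L2 in the gene table used and fall outside the symbol rule. COXFA4, a complex IV subunit, had 76.8, 62.2, 68.8 and 91.4 CPM, a course like that of the genes above, and the hypoxia-induced COXFA4L2 had 1 count at day 2 and was not listed elsewhere. A list of 10 hypoxia-inducible genes summed to 553, 838, 534 and 448 CPM, of which SLC2A1, a glucose transporter, made 335, 487, 235 and 141 CPM. Of its 9 measured genes 3 were higher and 2 lower at day 2 than at day 0, 2 higher and 2 lower at day 4 than at day 2, and 4 higher (BNIP3, EGLN3, NDRG1 and VEGFA) and 1 lower (SLC2A1) at day 4 than at day 0.

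Per length, levels within 1 complex spread widely. In ATP synthase ATP5MF had the highest mean level (352 FPKM) and in F1 ATP5F1B (270 FPKM), with ATP5F1D the lowest of F1 at 31.0 FPKM. In complex IV COX7C was highest (167 FPKM) and COX7A2L, which links complexes III and IV, lowest (47.4 FPKM). In complex I NDUFS5 had 210 FPKM and NDUFA10 7.71 FPKM among accessory subunits, and NDUFV2 had 70.4 and NDUFS7 17.9 FPKM among core subunits. Assembly factors ranged from NDUFAF2 at 27.3 to NDUFAF6 at 3.02 FPKM.

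Related genes were read from lists that include proteins acting beside the respiratory chain. Their counts stand against the same shares of all genes as above: 22.0% higher and 19.1% lower at day 2 with day 0, 16.4% and 16.7% at day 4 with day 2, and 25.6% and 22.1% at day 4 with day 0. Mitochondrial ribosomal proteins, which make the subunits encoded in the mitochondrion, had 1 of 77 genes higher and 21 lower at day 2 than at day 0, 10 higher and 0 lower at day 4 than at day 2, and 4 higher and 6 lower at day 4 than at day 0. The 21 lower genes are 27.3% of the list and the 10 higher genes 13.0%, so the first share was above and the second below that of all genes. They summed to 3653, 2780, 2570 and 3243 CPM, and 50 of 77 (64.9%) had both middle days below both outer days. MRPL1 had 31.0, 13.5, 12.8 and 22.9 CPM, while MRPL41 was the exception at 5.24, 14.5, 10.6 and 12.7 CPM. Cytosolic ribosomal proteins showed the order more often, in 77 of 83 genes (92.8%), with sums of 44490, 36830, 31140 and 44130 CPM, although few passed 1.5-fold (1 higher and 2 lower at day 2 over day 0, 2 and 0 at day 4 over day 2, 1 and 1 at day 4 over day 0). The order was therefore not particular to genes of the respiratory chain.

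Assembly factors outside the symbol rule were read as a list of complex IV and a joint list of complexes I, II, III and V. Of 23 complex IV assembly factors 1 was higher and 6 lower at day 2, 2 higher and 0 lower at day 4 than at day 2, and 2 higher and 3 lower at day 4 than at day 0. Their sum, 1030, 726, 679 and 766 CPM, stayed below day 0, and 9 of 23 showed the order of days. SCO1, a copper chaperone of complex IV, had 66.1, 34.7, 29.6 and 37.8 CPM. Of 22 assembly factors of complexes I, II, III and V, 0 were higher and 6 lower at day 2, 2 higher and 0 lower at day 4 than at day 2, and 2 higher and 1 lower at day 4 than at day 0. Their sum, 707, 522, 530 and 608 CPM, also stayed below day 0, and 15 of the 22 showed the order of days. At day 4 the sums were 0.744 times day 0 (0.714 to 0.775) for complex IV and 0.861 times (0.821 to 0.902) for the joint list. ATPAF1, a chaperone of the F1 part, had 56.6, 27.9, 36.5 and 42.4 CPM.

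The citrate cycle and pyruvate dehydrogenase feed electrons to the chain. Of 18 citrate cycle and pyruvate dehydrogenase genes 3 were higher and 1 lower at day 2, 1 higher and 2 lower at day 4 than at day 2, and 3 higher and 0 lower at day 4 than at day 0. Their sum was 1516, 1623, 1523 and 1752 CPM, with 5 of 18 (27.8%) in the order of days, against 16.7% of all genes. IDH2, a mitochondrial isocitrate dehydrogenase, had 33.2, 50.2, 56.4 and 95.8 CPM and was 2.89-fold higher at day 4 than at day 0 (2.43 to 3.45). PDHB, a subunit of pyruvate dehydrogenase, had 101, 196, 127 and 127 CPM, highest at day 2 where the respiratory chain genes were low. Among 14 measured genes of the pyruvate gate and uncoupling, 1 was higher and 3 lower at day 2, 0 higher and 2 lower at day 4 than at day 2, and 1 higher and 3 lower at day 4 than at day 0. PDK4, a kinase that inhibits pyruvate dehydrogenase, had 1 count at day 0 (0.194 CPM) and 21.8, 30.3 and 12.2 CPM later, a ratio of day 2 to day 0 of 112 with a counting interval of 19.7 to 4474. PDK3, another such kinase, had 78.5, 42.8, 30.7 and 20.0 CPM.

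Regulators of mitochondrial biogenesis had 2 of 17 genes higher and 6 lower at day 2, 3 higher and 0 lower at day 4 than at day 2, and 3 higher and 5 lower at day 4 than at day 0. Their sum was 875 CPM at day 0 and 681, 674 and 674 CPM afterwards, and so did not return at day 4 as that of the respiratory chain genes did. PPARGC1A, a coactivator of mitochondrial genes, had 0.970, 5.30, 6.57 and 8.54 CPM and was counted as higher in all 3 comparisons. Its day 0 level rests on 5 counts, and its ratio of day 4 to day 2, 1.61 (0.984 to 2.69), lay within counting error. Its paralogue PPARGC1B had 36.1, 5.30, 4.25 and 6.91 CPM and was 6.81-fold lower at day 2 (4.53 to 10.6). TWNK, the helicase that replicates mitochondrial DNA, had 53.9, 21.6, 18.9 and 19.8 CPM. ESRRG, one of the oestrogen-related receptors, had 1.16, 2.94, 16.2 and 7.82 CPM, highest at day 3.

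**Figure D3:**
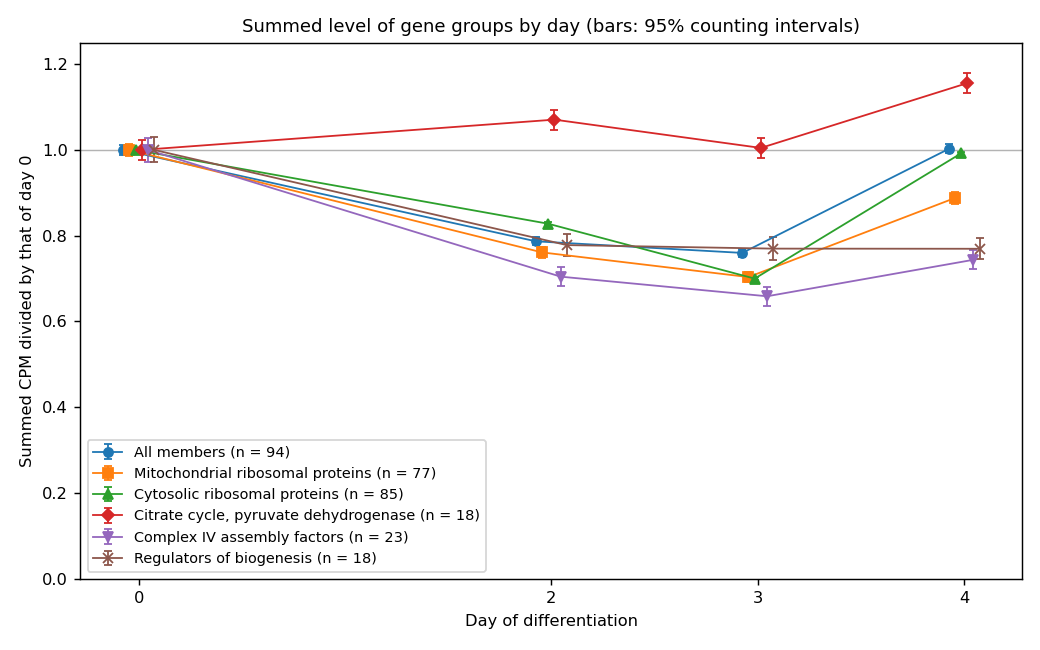
Summed CPM divided by that of day 0 (y axis, from 0) against day of differentiation (x axis) for the oxidative phosphorylation genes and 5 related lists, with 95% counting intervals. At day 4 the oxidative phosphorylation genes and the cytosolic ribosomal list are near 1, the mitochondrial ribosomal list, regulators and complex IV assembly factors are below 1, and the citrate cycle list is at or above 1 on each day.

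Other short transcripts differed in the same direction as the oxidative phosphorylation genes. The median deposited length of the latter was 856 bases, against 2856 bases for all protein-coding genes, and 55 of 94 were under 1000 bases. Among other genes of 10 CPM or more the median log2 ratio of day 2 to day 0 was -0.21 under 1000 bases and 0.03 at 1000 bases and over. For the oxidative phosphorylation genes the same medians were -0.37 and -0.23. For day 4 against day 2 other genes had 0.33 and -0.00, and the oxidative phosphorylation genes 0.46 and 0.24. In finer classes the gap was not present at every length. At day 2 over day 0 these genes had -0.159 against -0.166 for other genes at 800 to 1000 bases, and -0.18 against -0.14 at 1000 to 1500. At day 4 over day 2 they had 0.276 against 0.274 at 1000 to 1500 bases. In the remaining classes their medians were lower than those of other genes in the first comparison and higher in the second. Centring on other genes of like length was added after the values were seen and used a minimum of 1 CPM, not 10. The centred median of the 90 oxidative phosphorylation genes was -0.22 at day 2 over day 0, 0.19 at day 4 over day 2 and 0.01 at day 4 over day 0. In both length classes the order of days was more frequent in these genes than in other genes of 1 CPM or more: 38 of 51 (74.5%) against 33.2% under 1000 bases, and 25 of 39 (64.1%) against 15.4% at 1000 bases and over. With a minimum of 10 CPM the share among other short genes was 50.3% (228 of 453), against 74.5% (38 of 51). Of the 17 genes counted as lower at day 2, 16 had 10 CPM or more, and 15 of these were under 1000 bases. The part of transcript length in these results was not tested beyond this centring.

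**Figure D4:**
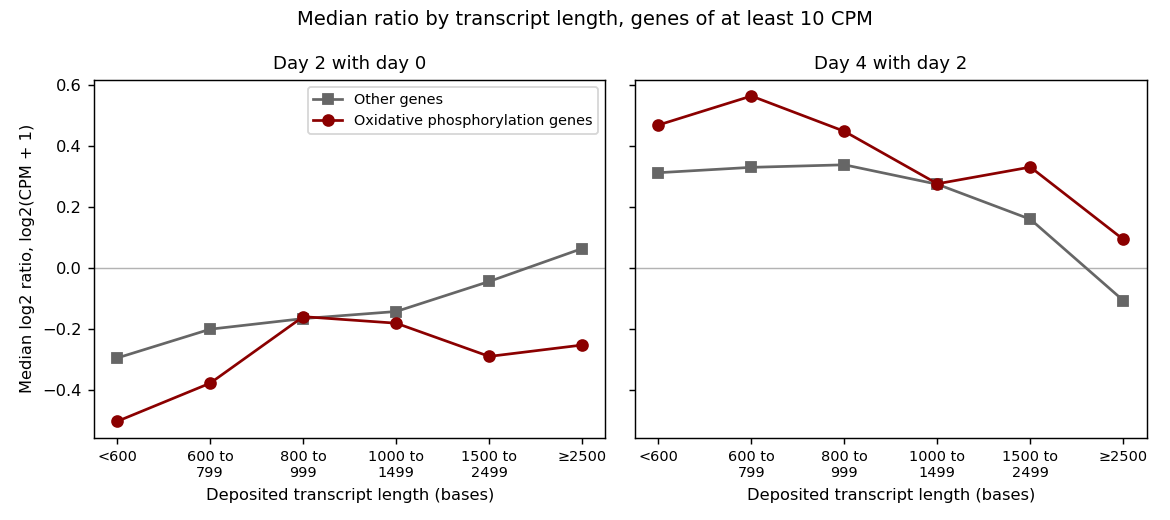
Median log2 ratio (y axis) by deposited transcript length in bases (x axis, 6 classes) for other genes (grey) and oxidative phosphorylation genes (red) of at least 10 CPM, for day 2 with day 0 (left) and day 4 with day 2 (right). In both sets the 2 shortest classes lie below the longest class on the left and above it on the right.

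Several of these genes have many near-identical pseudogene copies, to which reads could be divided or lost. The gene table holds 193 pseudogenes whose symbols begin like theirs, 45 of them of CYCS, 18 of COX6C and 12 each of NDUFA5 and NDUFB4, while 2 such pseudogenes were listed in the libraries. Levels of these 4 genes, and of ATP5MC1 and SDHD with 8 and 7 copies, are uncertain to that extent.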

How the data were processed

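RNA was sequenced from H1 cells at 4 days, 1 library per day, with a TruSeq RNA kit per the labels' protocols. Each deposited table gives per gene an expected count, an FPKM and a transcript length made by the authors. Per the submitters' processing notes BWA, Bowtie, RSEM and hg19 were used; the series' text names BWA and TopHat with Cufflinks, and the sources used here do not give versions, roles or strand handling. Lengths were used as deposited.

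Expected counts were rounded to whole numbers and divided by library totals scaled by TMM (edgeR 4.0.16 in R 4.3.3) to give CPM. Totals of 5038060 to 5493266 counts per library make 1 count worth 0.182 to 0.196 CPM. The tables list only genes with a count above 0, and a gene not listed was read as 0. Depth sets the counting intervals (exact Poisson for levels, exact conditional binomial for folds, scipy 1.17.1), which cover counting error only. With 1 library per day no test was run and no p-value is given. Among genes of 1 CPM or more in either library, a difference of 0.585 or more (the log2 of 1.5) in log2(CPM + 1) was counted. The counting of calls was checked on simulated counts. Days 2 and 0, 4 and 2, and 4 and 0 were compared.

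Gene IDs were named by a RefSeq table (GRCh38.p14): 19273 of 19390 IDs matched. Of the genes that the rule takes, 1 is counted in the groups but not reported here. The table's coordinates were used for the printed promoters only, since the files hold none. Members and lists were chosen with earlier results of these data known. Genes named were up to 5 with the largest difference in each direction of each comparison (minimum 10 CPM), isoform families, complex II, CYC1, CYCS, the highest and lowest mean FPKM per complex, and up to 4 of each related list; other genes named were chosen after their values were seen. Alternatives were total counts, size factors by the median of ratios (DESeq2 1.42.0), a pseudocount of 0.1 or 5, no minimum or 10 CPM, FPKM, 2-fold, and leaving out read-through models or assembly factors.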

Additional observations from a re-analysis of the deposited data

How the results depend on the processing

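No paired analysis was possible because each day has 1 library. Of 102 alternative values 85 stayed within the tolerance (1.5 times for a count, 0.1 for a median log2 ratio, the counting interval for a sum) and 17 did not, and no called result changed direction. The 17 genes lower at day 2 than at day 0 became 26 with total counts (28.9%, against 21.2% of all genes) and 4 at 2-fold. The 21 genes higher at day 4 than at day 2 became 11 with a pseudocount of 5 and 1 at 2-fold. The 2 lower genes of that comparison became 1 with a pseudocount of 5, a minimum of 10 CPM, FPKM, without read-through models and at 2-fold. For day 4 with day 0, the 5 lower genes became 3 with a pseudocount of 5 and 1 at 2-fold, and the 7 higher genes became 1 at 2-fold. Centring on other genes of like length, added after seeing the data, gave a median of 0.19 in place of 0.37 for day 4 with day 2. The number of genes with both middle days below both outer days was 59 to 67 under its alternatives, also added after seeing the data. The summed level, also with alternatives added after seeing the data, was 0.754 at day 2 over day 0, 1.30 at day 4 over day 2 and 0.981 at day 4 over day 0 with total counts, and 0.984 at day 4 over day 0 with size factors by the median of ratios. The median stayed below 0 at day 2 over day 0 and above 0 at day 4 over day 2 in each alternative. Depth limits genes under about 10 CPM most, and 1 library per day leaves variation between cultures unmeasured. The causes of these shifts were not tested beyond the changed setting itself.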
